A study of Mus musculus with 6 samples.

Results

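The 10 immediate early genes described here are the AP-1 genes Fos, Fosb, Jun, Junb and Jund, the related factor gene Atf3, the zinc finger gene Egr1, the orphan nuclear receptor genes Nr4a1 and Nr4a2, and Ier2. They were taken by gene symbol from a deposited expression table of 17997 mouse genes, and all 10 of 10 were found in it. RNA was sequenced from LT-HSC, long-term haematopoietic stem cells of the bone marrow that renew themselves and give rise to all blood lineages, in 6 libraries, 2 biological replicates for each of 3 genotypes. The cells came from C57BL/6 mice aged 8 to 11 weeks. The reference group, Mx, has the genotype MxCRE, a Cre recombinase under an interferon-inducible promoter. Flt3ITD cells have the genotype Flt3-ITD, an internal tandem duplication in the receptor tyrosine kinase Flt3, and NPMc_Flt3ITD cells have NPMc+/Flt3-ITD, which adds the cytoplasmic form of nucleophosmin found in acute myeloid leukaemia. The labels do not say whether the mutant groups also carry MxCRE, which promoters drive the mutant alleles, whether animals were pooled, or which surface markers defined the sort. A genotype with NPMc+ but without Flt3-ITD is not analysed here.

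Immediate early genes are transcribed within minutes of a signal at the cell surface or of stress, without new protein synthesis, mostly through MAP kinases acting on serum response factor with its Elk partners and on CREB. Fos and Jun proteins pair to form the transcription factor AP-1, Atf3 pairs with Jun proteins, Egr1 binds GC-rich sites, and the Nr4a receptors bind DNA without a known natural ligand. In mouse blood stem cells Egr1 and the Nr4a receptors are known for holding cells in quiescence, and loss of Nr4a1 together with Nr4a3 leads to myeloid leukaemia in mice.

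Values are normalised CPM, read counts that the authors scaled to an effective size of each library, and whole reads were recovered from them. Libraries held between 15618802 and 37038893 reads, so that 1 read was worth between 0.0289 and 0.0657 CPM. Each of the 10 genes had between 197 and 151021 reads in every library, so counting error is small for all 10. The reads of the 10 genes together made up between 0.349% and 1.21% of a library. All 12 of 12 LT-HSC marker genes examined were in the table, and their summed level was 2030 and 2050 CPM in replicates 1 and 2 of Mx, 1020 and 1090 CPM in the Flt3ITD pair and 1460 and 1180 CPM in the NPMc_Flt3ITD pair. Among markers of other cells, 8 of 8 neutrophil genes summed to between 202 and 1630 CPM, 7 of 8 erythroid genes to between 26.3 and 1720 CPM with Slc4a1 under 1 CPM throughout, and 6 of 6 T and NK cell genes to between 79.9 and 294 CPM. Monocyte and macrophage genes (7 of 8, with C1qa and C1qc under 1 CPM throughout) summed to between 166 and 367 CPM, and stromal and endothelial genes (6 of 6, with Cdh5 under 1 CPM throughout) to between 61.6 and 104 CPM. The libraries also differ in the sex genes, both of which were above 0 in every library. Xist was at 1007 and 1038 CPM in the Mx pair, 37.2 and 547 CPM in the Flt3ITD pair and 259 and 625 CPM in the NPMc_Flt3ITD pair. Ddx3y was at 20.4 and 24.8 CPM, 63.6 and 32.8 CPM, and 61.1 and 46.9 CPM in the same order. In bulk RNA a lower level from fewer cells of a type and one from less RNA per cell cannot be told apart.

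Promoter sequences are shown for the 3 genes that passed the test between Flt3ITD and Mx (Nr4a1, Nr4a2 and Atf3) and for Junb, which had the largest log2 difference of the 10 in the test of replicate number, and Fos, the most abundant of the 10 per length. They are the 250 bases before the RefSeq start of each gene, 5′ to 3′ on the gene's strand, on build GRCm38.p6, which is not the mm9 build of the authors' files. Capitals mark the core of the cyclic AMP response element to which CREB and ATF proteins bind, TGACG or its reverse complement CGTCA.

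Nr4a1, chr15:101266596-101266845, plus strand: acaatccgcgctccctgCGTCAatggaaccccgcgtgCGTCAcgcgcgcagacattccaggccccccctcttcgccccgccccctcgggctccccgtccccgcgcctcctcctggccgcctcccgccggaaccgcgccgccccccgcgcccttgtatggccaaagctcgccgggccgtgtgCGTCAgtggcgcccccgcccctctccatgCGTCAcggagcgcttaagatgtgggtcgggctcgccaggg
Nr4a2, chr2:57124004-57124253, minus strand: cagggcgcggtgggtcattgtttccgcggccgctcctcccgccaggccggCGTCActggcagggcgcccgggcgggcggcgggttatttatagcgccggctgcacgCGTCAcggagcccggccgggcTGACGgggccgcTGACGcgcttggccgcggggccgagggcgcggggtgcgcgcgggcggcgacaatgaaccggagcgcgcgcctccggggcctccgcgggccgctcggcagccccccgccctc
Atf3, chr1:191183334-191183583, minus strand: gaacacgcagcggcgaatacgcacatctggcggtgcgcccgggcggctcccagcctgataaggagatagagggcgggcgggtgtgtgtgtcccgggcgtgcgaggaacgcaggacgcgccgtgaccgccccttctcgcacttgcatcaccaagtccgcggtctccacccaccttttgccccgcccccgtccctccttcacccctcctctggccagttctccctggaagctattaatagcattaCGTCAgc
Junb, chr8:84978749-84978998, minus strand: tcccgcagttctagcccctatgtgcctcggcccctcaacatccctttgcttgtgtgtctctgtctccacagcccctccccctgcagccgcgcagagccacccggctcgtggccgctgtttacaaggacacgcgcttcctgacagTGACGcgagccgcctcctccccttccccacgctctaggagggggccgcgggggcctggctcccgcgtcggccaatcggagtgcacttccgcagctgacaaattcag
Fos, chr12:85473640-85473889, plus strand: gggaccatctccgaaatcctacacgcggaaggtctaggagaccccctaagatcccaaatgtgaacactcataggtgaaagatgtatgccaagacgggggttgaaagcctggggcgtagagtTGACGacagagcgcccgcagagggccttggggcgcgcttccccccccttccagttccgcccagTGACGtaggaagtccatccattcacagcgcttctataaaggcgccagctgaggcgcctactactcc

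Of the 10 genes 8 had a promoter in the RefSeq table, with Egr1 and Ier2 not matched. The core TGACG, searched on both strands, was present in 6 of these 8, namely Fos, Fosb, Junb, Atf3, Nr4a1 and Nr4a2, against 17.8% of 32851 promoters of the same length. Nr4a1 and Nr4a2 each held 4 copies and Fos held 2, while 3.9% of all promoters held at least 2. The EGR motif GCGNGGGCG was found in Fosb, Nr4a1 and Nr4a2, that is in 3 of 8 against 4.7% of all promoters. All motifs here were searched on both strands. The TATA motif TATAAA was found as written in Fos and only as its reverse complement TTTATA in Nr4a2, against 12.4% of all promoters. The letters of the full element TGACGTCA, which holds the core on both strands (1.55% of all promoters), the AP-1 motif TGANTCA (6.75%), the Nr4a motif AAAGGTCA (1.34%) and the CArG box of serum response factor (1.47%) were in none of the 8 windows. These promoters are between 47.6% GC (Jund) and 80% GC (Nr4a2), and base composition was not held equal in the shares given. A match is a match of letters only. Sites outside these windows, and those of Egr1 and Ier2, were not searched, so these genes may hold such motifs elsewhere.

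Per kilobase of exon the 10 genes spanned a wide range of abundance. Fos stood highest with a mean of 1580 CPM per kb over the 6 libraries, rank 28 of 16743 genes with a known length, and ranged from 781 to 2680 CPM per kb. Jun (mean 422), Ier2 (282), Junb (214), Egr1 (208), Nr4a1 (161) and Fosb (152 CPM per kb) followed. The lowest levels were those of Jund (22 CPM per kb), Atf3 (18.7 CPM per kb) and Nr4a2 (8.09 CPM per kb, rank 5724). The ranges over libraries overlap between all neighbours in this order except at 2 steps. The lowest Fos library (781 CPM per kb) lay above the highest Jun library (650 CPM per kb), and the lowest Fosb library (78.4 CPM per kb) above the highest Jund library (33.5 CPM per kb). The genes are spread over the genome, with Fos on chromosome 12, Fosb on 7, Jun on 4, Junb, Jund and Ier2 on 8, Atf3 on 1, Egr1 on 18, Nr4a1 on 15 and Nr4a2 on 2. Lengths are exon unions from a later annotation than the authors' build, so the order is approximate. Jun, Junb, Jund and Atf3 overlap a gene on the opposite strand in that annotation, and whether the counting used strand is not given in the sources used here. For Junb that neighbour is Prdx2, a peroxiredoxin gene at 247 and 284 CPM in the Mx pair, 360 and 442 CPM in the Flt3ITD pair and 292 and 292 CPM in the NPMc_Flt3ITD pair.

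Both Fos genes were higher in the library numbered 1 than in the library numbered 2 of each genotype. Fos, the prototype AP-1 subunit, was at 4767 CPM in replicate 1 and 1646 CPM in replicate 2 of Mx and, in the same order as throughout, at 3121 and 1695 CPM in the Flt3ITD pair and at 5649 and 3129 CPM in the NPMc_Flt3ITD pair. Replicate 1 was the higher library in all 3 genotypes, and the replicate 2 libraries of Mx and Flt3ITD were almost level. Fosb, which can replace Fos in AP-1, was at 894 and 338 CPM in the Mx pair, 334 and 297 CPM in the Flt3ITD pair and 1004 and 583 CPM in the NPMc_Flt3ITD pair. Its Flt3ITD libraries differed little from each other and lay below all other libraries.

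The Jun genes divided into a pair that followed the library number and 1 gene that did not. Jun was at 2073 and 498 CPM in the Mx pair, 1725 and 790 CPM in the Flt3ITD pair and 2059 and 923 CPM in the NPMc_Flt3ITD pair. Junb, a Jun family member that restrains growth of blood stem cells in mice, was at 705 and 136 CPM in the Mx pair, 408 and 135 CPM in the Flt3ITD pair and 711 and 227 CPM in the NPMc_Flt3ITD pair. For both genes every replicate 1 library lay above every replicate 2 library, whatever the genotype. Jund, the Jun gene with the steadiest expression in most cells, was at 27.3 and 27.5 CPM in the Mx pair, 18.3 and 44.5 CPM in the Flt3ITD pair and 47.2 and 55.8 CPM in the NPMc_Flt3ITD pair. It was level in Mx and higher in replicate 2 of both mutant groups.

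Atf3, a stress-induced member of the ATF family, was at 106 and 44.4 CPM in the Mx pair, 12.9 and 6.88 CPM in the Flt3ITD pair and 52 and 19 CPM in the NPMc_Flt3ITD pair. Both Flt3ITD libraries were the lowest of the 6. Egr1 was at 1223 and 936 CPM in the Mx pair, 625 and 398 CPM in the Flt3ITD pair and 1609 and 794 CPM in the NPMc_Flt3ITD pair. The Flt3ITD libraries were again the lowest, and the NPMc_Flt3ITD libraries lay on either side of those of Mx.

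Nr4a1 had the widest range of the 10 genes, 22.7-fold from the lowest to the highest library. It was at 1012 and 451 CPM in the Mx pair, 130 and 44.5 CPM in the Flt3ITD pair and 727 and 215 CPM in the NPMc_Flt3ITD pair. Within each genotype replicate 1 was higher, and the Flt3ITD libraries lay below all others. Nr4a2 was at 55.3 and 47.1 CPM in the Mx pair, 13.2 and 13.8 CPM in the Flt3ITD pair and 34.4 and 17.9 CPM in the NPMc_Flt3ITD pair. Here the 3 genotypes did not overlap and the library number separated the NPMc_Flt3ITD libraries (1.92-fold) more than those of Mx (1.17-fold) or Flt3ITD (0.953-fold). Ier2, a small nuclear protein gene induced early in many cells, was at 611 and 286 CPM in the Mx pair, 489 and 262 CPM in the Flt3ITD pair and 636 and 294 CPM in the NPMc_Flt3ITD pair. Every replicate 1 library of Ier2 lay above every replicate 2 library.

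**Figure D1:**
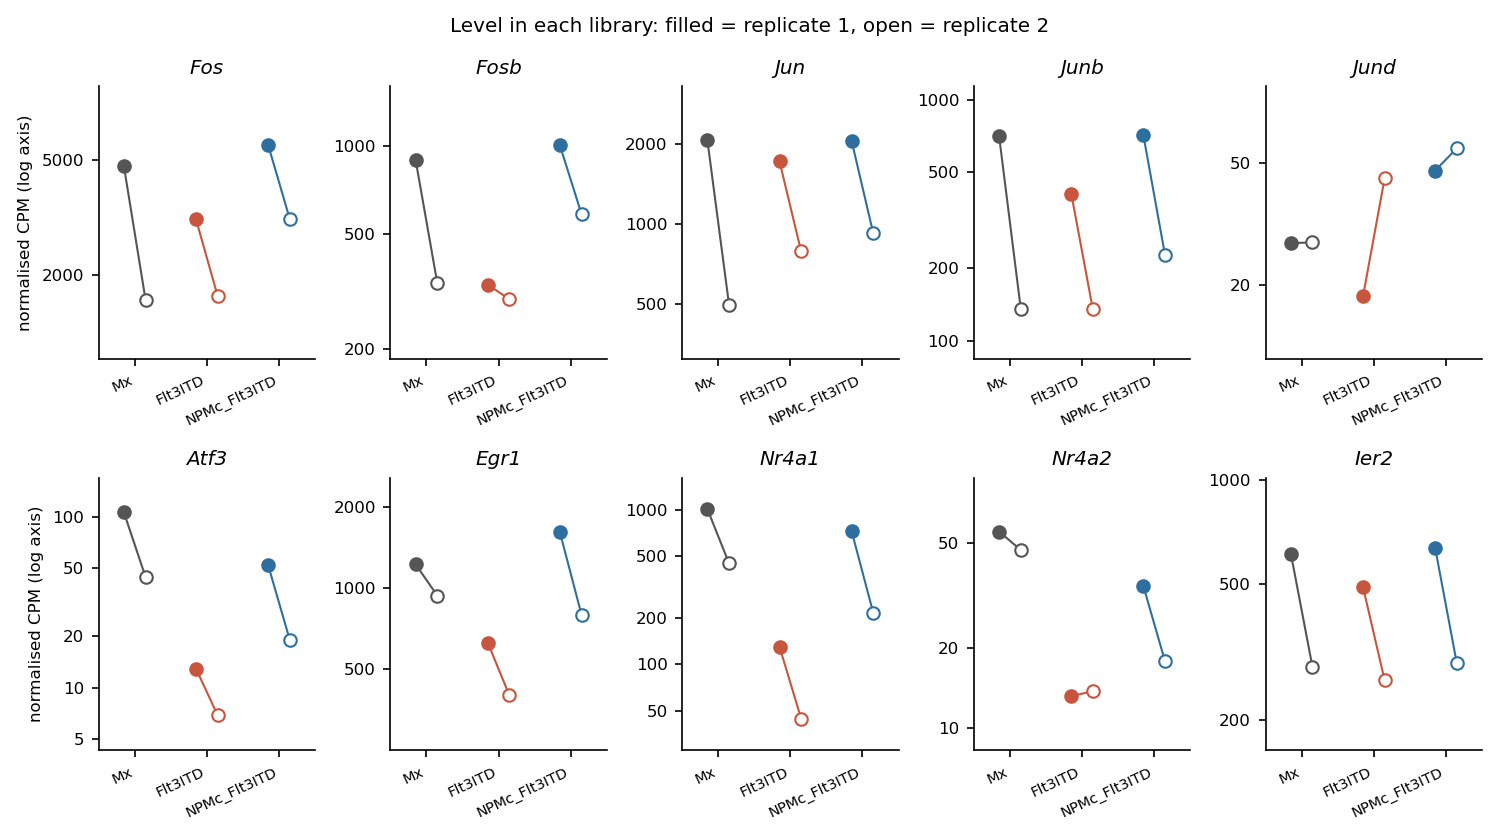
Level of each of the 10 genes in each of the 6 libraries (vertical axis, normalised CPM on a log axis, with a scale of its own in every panel). Filled points are replicate 1 and open points replicate 2 of a genotype, joined by a line. Jun, Junb and Ier2 separate by replicate number, while the Flt3ITD points of Fosb, Atf3, Egr1, Nr4a1 and Nr4a2 lie below all others.

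Replicate 1 libraries carried more immediate early RNA than replicate 2 libraries in all 3 genotypes. The 10 genes together took 1.13% of the reads in replicate 1 and 0.485% in replicate 2 of Mx, 0.671% and 0.349% in the Flt3ITD pair and 1.21% and 0.585% in the NPMc_Flt3ITD pair. Of the 10 genes 8 were higher in replicate 1 of every genotype, against 20.8% of the 12657 genes tested, and the exceptions were Jund and Nr4a2. For 3 of the 10, Jun, Junb and Ier2, all replicate 1 libraries lay above all replicate 2 libraries, against 6.79% of the genes tested. The ratio of replicate 1 to replicate 2 was largest for Junb within Mx (5.17) and within Flt3ITD (3.02), and for Nr4a1 within NPMc_Flt3ITD (3.39, with Junb at 3.13). Over the 10 genes its median was 2.31 for Mx, 1.85 for Flt3ITD and 2.1 for NPMc_Flt3ITD, while over all genes tested it was 1.01, 0.988 and 1. The smallest ratio was that of Jund in Flt3ITD, 0.41.

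**Figure D2:**
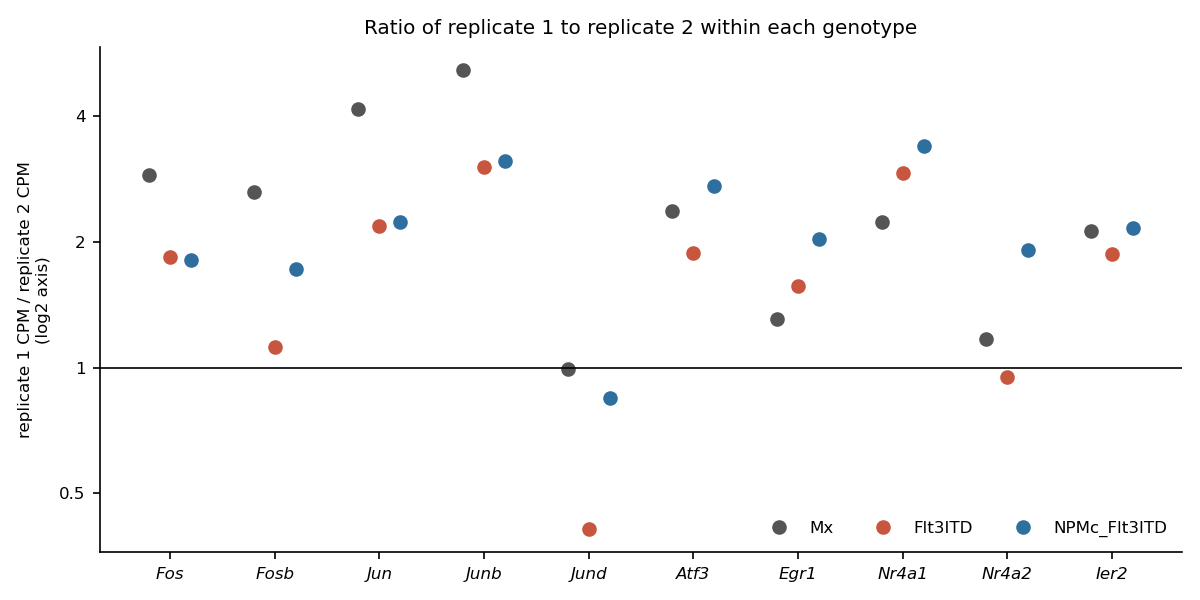
Ratio of the level in replicate 1 to that in replicate 2 (vertical axis, CPM over CPM, log2 axis) for each of the 10 genes, with 1 point per genotype. Apart from Jund and from Nr4a2 in Flt3ITD (0.953) the points lie above 1, up to 5.17 for Junb in Mx.

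The split was tested with limma, which fits a linear model to each gene and shares information on the spread between genes, on log2(CPM + 1). Genotype and replicate number were both terms, a gene was tested if 2 or more libraries held at least 1 CPM, and a call needed an adjusted p (Benjamini-Hochberg over the 12657 genes that passed) under 0.05. All 10 of the genes passed the filter. By this test 8 of the 10 rose in replicate 1, against 1.63% of all genes tested. Junb was higher by 1.86 on the log2 scale (SE 0.14, adjusted p = 0.00012), Nr4a1 by 1.48 (SE 0.12, adjusted p = 0.000179) and Ier2 by 1.03 (SE 0.10, adjusted p = 0.000554). Jun (1.45), Atf3 (1.15), Fos (1.09), Fosb (0.78) and Egr1 (0.68) followed, with adjusted p between 0.00176 and 0.0316. Nr4a2 (0.35, adjusted p = 0.386) and Jund (-0.50, adjusted p = 0.243) did not pass. The median log2 difference was 1.06 for the 10 genes and 0 for all genes tested.

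This result rests on 3 pairs of libraries, and the labels do not say what a shared number stands for, such as a day, a litter or a sequencing run. Fosb, Atf3 and Egr1 did not pass without the NPMc_Flt3ITD libraries (adjusted p = 0.0673, 0.051 and 0.0859), nor Fosb and Atf3 without the Mx libraries (0.104 and 0.0538), and Fosb was not called by edgeR's quasi-likelihood test, run on read counts recovered from the CPM (adjusted p = 0.0741) or by DESeq2 (0.14). With no filter on low values none of the 8 passed in limma (adjusted p between 0.134 and 0.243). Other features of the libraries went with the number. The sum of 7 of 8 B and plasma cell markers was 211 CPM in replicate 1 and 390 CPM in replicate 2 of Mx, 201 and 406 CPM in the Flt3ITD pair and 199 and 534 CPM in the NPMc_Flt3ITD pair. Monocyte and macrophage genes were also lower in replicate 1 (257 and 271, 166 and 335, and 282 and 367 CPM in the same order). So were stromal and endothelial genes (72 and 81.9, 61.6 and 72.7, and 99 and 104 CPM). Erythroid genes were higher in replicate 1 (205 and 152, 1720 and 1620, and 122 and 26.3 CPM). The LT-HSC, neutrophil, and T and NK cell sums did not follow the number. Fewer genes were above 0 in replicate 1 of every group, 15005 against 16226 within Mx, 14026 against 15860 within Flt3ITD and 14848 against 15944 in NPMc_Flt3ITD. Xist, with the values given above, was also lower in replicate 1 of every genotype. Total reads did not follow the number. The part of these in the split of the immediate early genes was not tested.

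For Flt3ITD against Mx the question was whether the activated receptor changes the stem cell transcriptome. Nr4a1, Nr4a2 and Atf3 fell, that is 3 of the 10 genes, against 2.43% of all genes tested that fell. The model for genotype had group as its only term and all 6 libraries. Mean levels were 732 ± 397 CPM in the Mx pair and 87.4 ± 60.6 CPM in the Flt3ITD pair for Nr4a1 (SD, n = 2 each), 51.2 ± 5.82 and 13.5 ± 0.459 CPM for Nr4a2, and 75.2 ± 43.5 and 9.9 ± 4.28 CPM for Atf3. By limma Nr4a1 fell by 3.13 on the log2 scale (SE 0.64, adjusted p = 0.0367), Atf3 fell by 2.73 (SE 0.54, adjusted p = 0.033) and Nr4a2 fell by 1.84 (SE 0.31, adjusted p = 0.0236). The 3 genes hold the core TGACG in the promoters shown above, as do Fos and Junb, which did not pass.

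Compared within a replicate number the same 3 genes had similar ratios. Nr4a1 in Flt3ITD was at 0.129 times its Mx level among replicate 1 libraries and 0.0986 times among replicate 2 libraries. Atf3 was at 0.122 and 0.155 times, and Nr4a2 at 0.239 and 0.294 times. Same-numbered libraries deviated from their group means together, so replicate number was also fitted as a block, that is as a second term. The pairing was read from the same 6 libraries and not from the labels. The numbers may not be true pairs, and every result with the block depends on them. With the block 5 of the 10 genes fell, against 8.21% of all genes tested, and Egr1 (log2 fold change -1.10, adjusted p = 0.00125, against 0.111 without the block) and Fosb (-0.80, adjusted p = 0.0266, against 0.282) were those added. Egr1 in Flt3ITD was at 0.511 and 0.426 times its Mx level within the numbers 1 and 2, and Fosb at 0.373 and 0.877 times.

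The libraries of Flt3ITD lay wholly below those of Mx for 5 of the 10 genes, Fosb, Atf3, Egr1, Nr4a1 and Nr4a2, against 27.3% of all genes tested. The other AP-1 genes and Ier2 overlapped and did not pass. Their log2 fold changes were -0.28 for Fos (95% interval -1.54 to 0.97), 0.20 for Jun (-1.30 to 1.70), -0.40 for Junb (-2.23 to 1.43), 0.06 for Jund (-0.77 to 0.89) and -0.22 for Ier2 (-1.27 to 0.82). Each of these intervals reaches beyond a 1.5-fold change in both directions. The median over the 10 genes was -0.60, against 0.005 for all genes tested.

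With 2 libraries a group these calls are fragile. Nr4a1, Atf3 and Nr4a2 each lost their call in limma when any of the 4 libraries compared was left out, with adjusted p between 0.0534 and 0.166, while the log2 fold change stayed between -3.89 and -1.73. Nr4a1 also missed the threshold with edgeR (adjusted p = 0.067), and DESeq2 called 4 of the 10 lower, Nr4a2 (adjusted p = 8.39e-06), Atf3 (8.94e-06), Nr4a1 (0.0197) and Egr1 (0.0259), against 5.82% of all genes tested. All 3 missed the threshold in limma with no filter on low values (adjusted p = 0.13 for Nr4a1, 0.113 for Atf3 and 0.0802 for Nr4a2). Beside this comparison the LT-HSC marker sum was lower in both Flt3ITD libraries than in all others, the erythroid sum was higher (1720 and 1620 CPM, against 205 and 152 CPM in the Mx pair), and Xist was lower than in Mx. The T and NK cell sum was also higher (252 and 184 CPM, against 79.9 and 98.3 CPM), and the neutrophil sum was 273 and 1630 CPM against 246 and 202 CPM. Their part in the result was not tested.

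**Figure D3:**
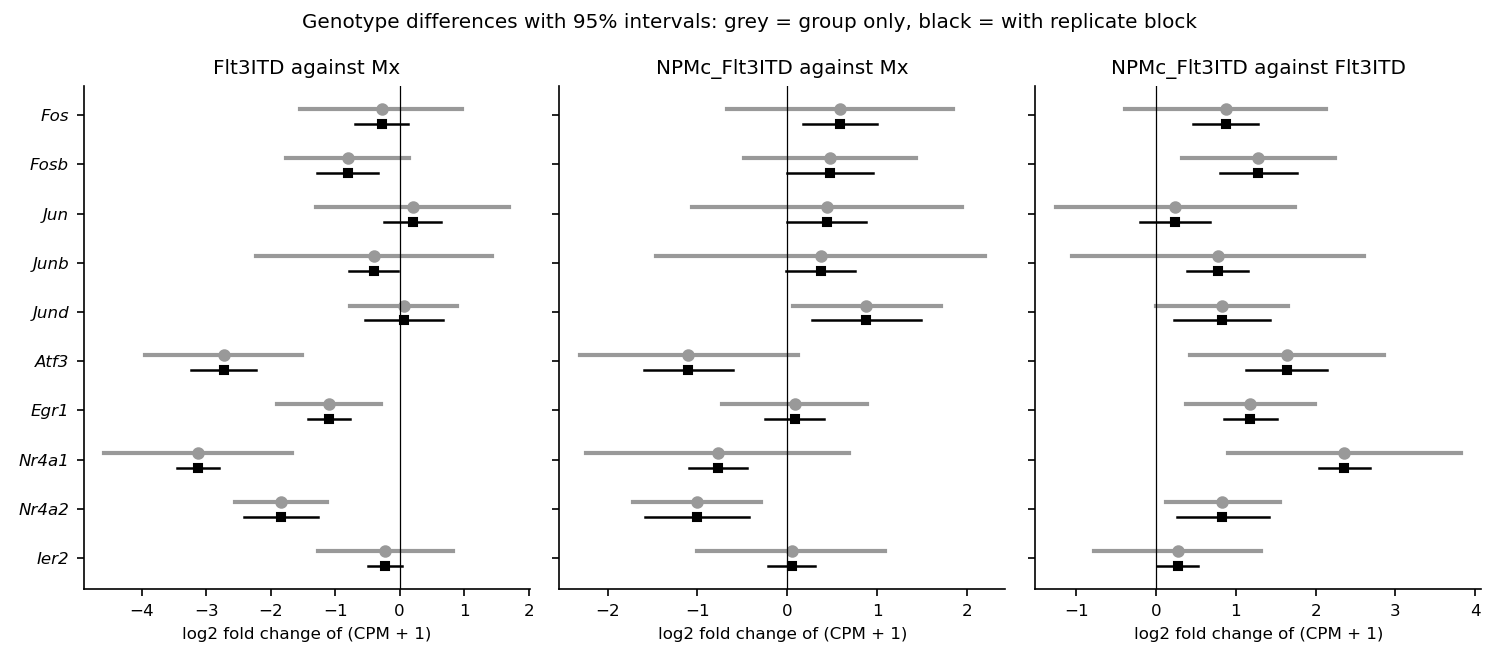
Difference between genotypes for each of the 10 genes (horizontal axis, log2 fold change of CPM + 1, with a scale of its own in each panel; bars are 95% intervals). Grey circles are from the model with group only and black squares from the model with replicate number as a block. The black intervals are narrower for every gene, and those of Nr4a1, Nr4a2 and Atf3 lie below 0 in Flt3ITD against Mx under both models.

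NPMc_Flt3ITD against Mx asked how the double mutant differed from the reference. By limma 0 of the 10 genes passed, against 1.17% of all genes tested, as with edgeR and DESeq2. At an unadjusted p under 0.05 there were 2, Jund and Nr4a2, against 12.4% of all genes tested. Nr4a2 was at 26.2 ± 11.6 CPM, against 51.2 ± 5.82 CPM in the Mx pair (log2 fold change -1.01, SE 0.31, adjusted p = 0.212). Jund was at 51.5 ± 6.09 against 27.4 ± 0.122 CPM (0.88, SE 0.36, adjusted p = 0.361). With the replicate block Nr4a1 (-0.77, adjusted p = 0.0122), Atf3 (-1.10, adjusted p = 0.0189) and Nr4a2 (-1.01, adjusted p = 0.04995) fell, 3 of the 10 genes, against 2.82% of all genes tested. Within the numbers 1 and 2 Nr4a1 was at 0.718 and 0.475 times its Mx level, Atf3 at 0.49 and 0.429 times and Nr4a2 at 0.622 and 0.381 times. Fos, Fosb, Jun, Junb, Egr1 and Ier2 had log2 fold changes between 0.05 and 0.59 with overlapping libraries. The LT-HSC marker sum was lower in both NPMc_Flt3ITD libraries than in Mx, but its genes differed. Kit overlapped between the groups (798 and 567 CPM, against 689 and 716 CPM in the Mx pair), as did Slamf1. Ly6a, Procr, Mecom and Hlf were lower in both NPMc_Flt3ITD libraries. The neutrophil sum was higher (896 and 1040 CPM, against 246 and 202 CPM), as was that of T and NK cells (294 and 289 CPM, against 79.9 and 98.3 CPM), and the erythroid sum was lower (122 and 26.3 CPM, against 205 and 152 CPM). Their part in these values was not tested.

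NPMc_Flt3ITD against Flt3ITD compared the mutant groups directly. The log2 fold change was above 0 for all 10 genes, against 52.1% of all genes tested, with a median of 0.85 against 0.026, and turned below 0 for Jun, Junb and Ier2 when Flt3ITD replicate 2 or NPMc_Flt3ITD replicate 1 was left out. By limma 0 of the 10 passed, against 1.18% of all genes tested, and 5 (Fosb, Atf3, Egr1, Nr4a1 and Nr4a2) had an unadjusted p under 0.05, against 18.8%. None passed with edgeR, while DESeq2 called 3 (Fosb, Atf3 and Egr1, adjusted p = 0.0225, 0.0167 and 0.0123), against 3.18% of all genes tested that were called higher. Libraries of NPMc_Flt3ITD lay wholly above those of Flt3ITD for 7 of the 10 genes, against 24.4% of all genes tested, and overlapped for Jun, Junb and Ier2.

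Nr4a1 showed the widest difference between the mutant groups, 471 ± 363 CPM in the NPMc_Flt3ITD pair and 87.4 ± 60.6 CPM in the Flt3ITD pair (log2 fold change 2.36, SE 0.64, adjusted p = 0.108). Within the numbers 1 and 2 it was 5.58 and 4.82 times as high. Atf3 was 4.02 and 2.77 times as high, Fosb 3.01 and 1.96 times, Egr1 2.57 and 1.99 times and Fos 1.81 and 1.85 times. With the replicate block 6 of the 10 genes rose, against 4.88% of all genes tested. They were Nr4a1 (adjusted p = 2.13e-05), Egr1 (0.00115), Atf3 (0.00176), Fosb (0.00494), Fos (0.0154) and Junb (0.0175). Flt3ITD and NPMc_Flt3ITD share the Mx libraries as their reference, so their differences from Mx are not independent of each other. Erythroid markers summed to 122 and 26.3 CPM in the NPMc_Flt3ITD pair, against 1720 and 1620 CPM in the Flt3ITD pair. LT-HSC markers summed to 1460 and 1180 CPM, against 1020 and 1090 CPM. T and NK cell genes summed to 294 and 289 CPM, against 252 and 184 CPM. Stromal and endothelial genes summed to 99 and 104 CPM, against 61.6 and 72.7 CPM. The neutrophil, monocyte and macrophage, and B and plasma cell sums overlapped. The part of these sums in the differences was not tested.

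Of the relatives of the 10 genes that were tested, 13 AP-1 and ATF genes and 4 Egr, Nr4a and Nab genes, 1 passed for replicate number. This was the Egr gene Egr2, which rose, against 1.63% of all genes tested that rose. Of 15 other AP-1 and ATF family genes 13 could be tested, and none passed for replicate number by limma (median 0.04). Between Flt3ITD and Mx 3 of the 13 fell and none rose, with a median of -0.39, against 2.43% and a median of 0.005 for all genes tested. With the replicate block 5 of the 13 fell there (8.21% of all genes), 2 fell in NPMc_Flt3ITD against Mx (2.82%) and 1, Atf4, rose in NPMc_Flt3ITD against Flt3ITD (4.88%). Fosl2, the Fos relative Fra-2, was at 36.3 and 29.3 CPM in the Mx pair, 5.58 and 7.35 CPM in the Flt3ITD pair and 13.5 and 11.9 CPM in the NPMc_Flt3ITD pair, and fell by 2.18 in Flt3ITD (SE 0.30, adjusted p = 0.0116). Its replicates were close in every genotype. Maff, a small Maf protein gene, fell by 2.21 (adjusted p = 0.0237) and Atf4, a factor of the integrated stress response, fell by 0.78 (adjusted p = 0.0467). Fosl1 was under 1 CPM in all 6 libraries and not tested.

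Of the 6 other Egr and Nr4a genes and their Nab corepressors 4 could be tested, Egr3 and Egr4 being too low. Egr2 was at 8.17 and 3.58 CPM in the Mx pair, 5.25 and 2.19 CPM in the Flt3ITD pair and 13.2 and 0.751 CPM in the NPMc_Flt3ITD pair. It rose in replicate 1 (log2 difference 1.67, SE 0.41, adjusted p = 0.0444), 1 of the 4 genes, against 1.63% of all genes tested. It did not pass in any comparison of genotypes (adjusted p between 0.751 and 0.944). Nr4a3, the remaining Nr4a receptor, was at 2.1 and 1.37 CPM in the Mx pair, 0 and 0.127 CPM in the Flt3ITD pair and 0.973 and 1.01 CPM in the NPMc_Flt3ITD pair. Between Flt3ITD and Mx it did not pass (-1.35, adjusted p = 0.0834) but did with the replicate block (adjusted p = 0.0359). Nr4a3 reached the 1 CPM of the filter only in the Mx pair and in NPMc_Flt3ITD replicate 2. It thus entered the test through groups where it was higher, and no conclusion is drawn from its call. Nab2, a corepressor of Egr proteins, was at 14.5 and 10.1 CPM in the Mx pair and 3.28 and 2.6 CPM in the Flt3ITD pair and fell by 1.74 (SE 0.36, adjusted p = 0.0374). It was the only one of the 4 to pass between Flt3ITD and Mx, against 2.43% of all genes tested that fell. With the block Nab2 and Nab1, another corepressor, fell there (adjusted p = 0.00705 and 0.0302), against 8.21%. Nr4a3 is not counted, since it entered the test through groups where it was higher. With the block Nab1 rose in NPMc_Flt3ITD against Flt3ITD (4.88% of all genes).

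Genes of the signalling route to these promoters were examined as 2 lists. Of 10 upstream transcription factors 1 fell in Flt3ITD against Mx, the Elk family gene Elk3 (-0.79, adjusted p = 0.0478), and of 19 MAP kinase cascade genes 1 fell, Rps6ka3, which encodes a kinase downstream of ERK (-1.41, adjusted p = 0.0295). These counts stand against 2.43% of all genes tested that fell, and the medians were -0.40 and -0.16. For replicate number none of the 10 upstream factors passed, and 2 of the 19 cascade genes rose, the MEK gene Map2k2 (0.60, adjusted p = 0.0302) and Rps6ka4 (0.92, adjusted p = 0.0373), which encodes a kinase that acts on CREB, against 1.63% of all genes tested. No gene of these lists passed in the other comparisons by limma without the block. With the block 2 upstream factors and 2 cascade genes fell in Flt3ITD against Mx (8.21% of all genes) and 1 cascade gene, Map2k2, rose (10.3%). The upstream factor genes Crebbp and Mkl1 rose in NPMc_Flt3ITD against Flt3ITD with the block (4.88% of all genes), and 1 cascade gene fell in it (7.07%) and 1 in NPMc_Flt3ITD against Mx (2.82%).

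A list of 37 other immediate early genes, of which 34 could be tested, showed the split in part. Of the 34, 9 rose in replicate 1 and none fell, with a median of 0.33, against 1.63% and a median of 0 for all genes tested. Dusp1, a phosphatase that switches off MAP kinases, was at 1275 and 540 CPM in the Mx pair, 944 and 532 CPM in the Flt3ITD pair and 1526 and 784 CPM in the NPMc_Flt3ITD pair, and rose by 1.01 (SE 0.11, adjusted p = 0.00173). The zinc finger factor genes Klf6 (0.96, adjusted p = 0.00258) and Klf2 (1.2, adjusted p = 0.0065) and the antiproliferative gene Btg2 (1.04, adjusted p = 0.00289) rose too.

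In Flt3ITD against Mx 12 of the 34 fell and none rose, with a median of -1.10, against 2.43% and a median of 0.005 for all genes tested. Those with the smallest p were Sik1, a kinase of CREB coactivators, which fell by 1.85, the zinc finger gene Klf10, which fell by 1.74, the polo-like kinase gene Plk2, which fell by 2.65, and Id3, an inhibitor of helix-loop-helix factors, which fell by 3.39. Their adjusted p lay between 0.00728 and 0.00773. Sik1 was at 213 and 181 CPM in the Mx pair, 48.2 and 60.4 CPM in the Flt3ITD pair and 151 and 143 CPM in the NPMc_Flt3ITD pair, so the genotypes did not overlap and the replicates were near each other. Its replicate difference was 0.00 on the log2 scale (adjusted p = 0.994). In NPMc_Flt3ITD against Mx Klf10 (-1.34, adjusted p = 0.0113), Plk2 (-1.62, adjusted p = 0.0282) and Id3 (-2.23, adjusted p = 0.0318) fell, which is 3 of the 34, against 0.656% of all genes tested. Against Flt3ITD only Sik1 rose, by 1.43 (adjusted p = 0.00927), with a list median of 0.78, against 0.277% and a median of 0.026 for all genes tested. With the replicate block the counts were higher. In Flt3ITD against Mx 19 of the 34 fell, against 8.21% of all genes, and 1 rose, against 10.3%. That gene was Myc, a growth factor-induced transcription factor gene (0.99, adjusted p = 0.00286, against 0.119 without the block). In NPMc_Flt3ITD against Flt3ITD 16 of the 34 rose with the block and none fell, against 4.88% and 7.07% of all genes. In NPMc_Flt3ITD against Mx 8 fell and 1, Btg2, rose with the block, against 2.82% and 2.62%. Cyr61 is counted with the block as falling against Mx in both mutant groups. It was at 9.52 and 3.96 CPM in the Mx pair and 1.77 and 0.317 CPM in the Flt3ITD pair. In the NPMc_Flt3ITD pair it was at 0.0374 and 0.144 CPM. It reached the 1 CPM of the filter only in the Mx pair and Flt3ITD replicate 1, so no conclusion is drawn from its calls.

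**Figure D4:**
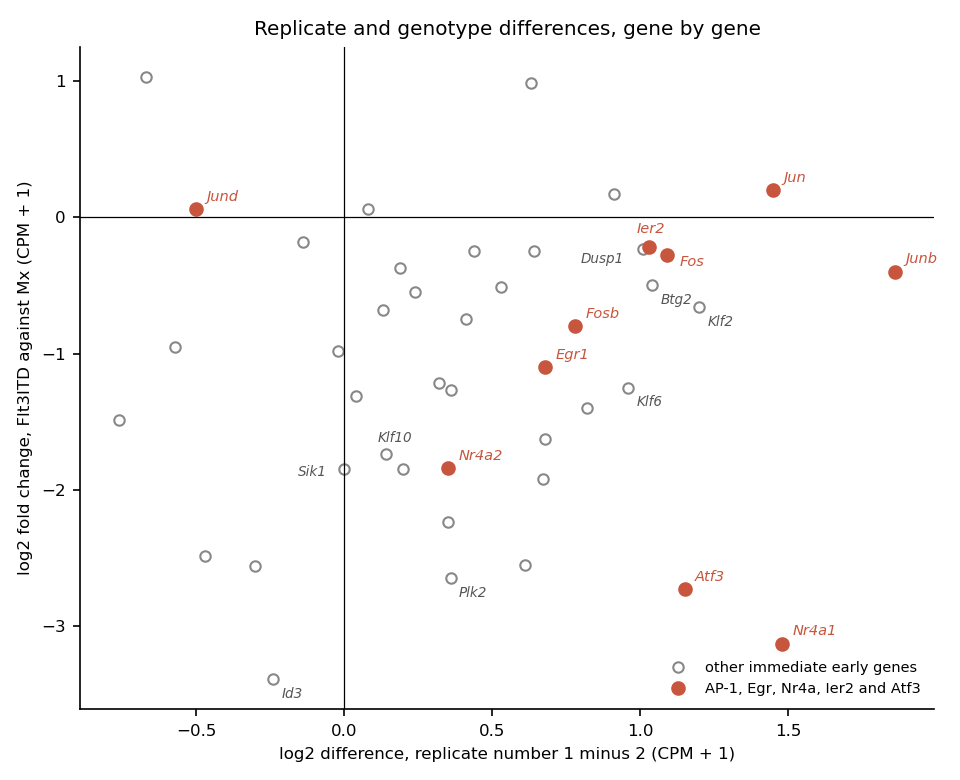
Log2 fold change in Flt3ITD against Mx (vertical axis) by log2 difference between replicate numbers 1 and 2 (horizontal axis), both of CPM + 1, for the 10 genes (filled) and 34 other immediate early genes (open). Junb and Jun lie far to the right near 0 on the vertical axis, Nr4a1 and Atf3 lie to the right and low, and Sik1, Klf10 and Id3 are low with little difference between replicates.

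Heat shock genes, a stress class outside the immediate early group, behaved unevenly. For replicate number 2 of 13 rose and 1 fell, against 1.63% and 3.09% of all genes tested. Hspa1a, an inducible Hsp70 gene, was at 26.1 and 3.53 CPM in the Mx pair, 123 and 15.6 CPM in the Flt3ITD pair and 50.9 and 4.28 CPM in the NPMc_Flt3ITD pair (log2 difference 2.92, SE 0.22, adjusted p = 0.00012). Its near-identical copy Hspa1b may share its reads, so its level is uncertain. The co-chaperone gene Dnajb1 rose by 0.88 (adjusted p = 0.00192) and the mitochondrial chaperonin gene Hspe1 fell by 0.80 (adjusted p = 0.00941). In Flt3ITD against Mx the chaperone genes Hspd1 (0.83, adjusted p = 0.0401) and Hsph1 (0.84, adjusted p = 0.0459) rose, against 2.12% of all genes tested, and Hspd1 fell by 1.14 in NPMc_Flt3ITD against Flt3ITD (adjusted p = 0.0232), against 0.901%. With the replicate block 5 of the 13 rose and 2 fell in Flt3ITD against Mx (10.3% and 8.21% of all genes), and 6 fell in NPMc_Flt3ITD against Flt3ITD (7.07%).

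The 10 genes did not share a single profile over the 6 libraries. The mean of their centred log2 levels was 0.91 and -0.23 for the Mx pair, -0.37 and -1.0 for the Flt3ITD pair and 0.86 and -0.18 for the NPMc_Flt3ITD pair, highest in replicate 1 of Mx and of NPMc_Flt3ITD. Pearson correlations with this mean, to which each gene contributes, were 0.943 for Egr1, 0.931 for Fosb, 0.928 for Nr4a1 and 0.901 for Atf3, down to 0.735 for Nr4a2, 0.680 for Jun and -0.001 for Jund. Among 10181 other genes with a mean of at least 5 CPM the profile most like it was that of Klf6, at 876 and 378 CPM in the Mx pair, 293 and 199 CPM in the Flt3ITD pair and 769 and 356 CPM in the NPMc_Flt3ITD pair (r = 0.995). Camsap1 (0.993), Flcn (0.992), Vps37c (0.989), Tle6 and Tnip2 (0.986 each), Prkra (0.985), Pdcl (0.983), and Acap1 and Ube2h (0.982 each) came next. These correlations describe 6 libraries that share their depth and normalisation across genes, and with so many genes some will be high by selection.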

How the data were processed

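RNA of sorted LT-HSC was sequenced in 6 libraries prepared by SMART-seq from polyadenylated RNA of small numbers of cells, as the labels' protocols state. The deposited table gives, per the file headers, normalised CPM from edgeR, a signal value that is no longer a count, for genes listed when any sample exceeded 0. Tools named in the submitters' processing notes are TopHat2 2.1.0 and Bowtie2 2.2.4, HTSeq 0.6.1p1, edgeR 3.20.7, CASAVA 1.8 and SAMtools 0.1.18, with build mm9. Which annotation was used, whether strand was, and how reads with several matches were counted is not given in the sources used here.

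Of 107982 values 100% were whole multiples of 1 read within 0.01 reads, which gave read counts. SMART-seq amplification without molecular identifiers makes reads dependent, so depth covers counting error only. limma 3.58.1 with an intensity trend was run in R 4.3.3 on log2(CPM + 1), a scale that understates changes of low genes. It kept 12657 genes and removed 5340, with 3 residual degrees of freedom, 8.67 after moderation (2 and 11.1 with replicate number). edgeR 4.0.16 and DESeq2 1.42.0 on recovered reads were alternatives, with other pseudocounts, filters and scaling, only the libraries compared, and each library left out. Only the fit of Flt3ITD against Mx with group as its only term was tested on simulated data. These had the same spread for all genes and no effect of replicate number. The fits with replicate number were not tested in this way.

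Libraries with the same number deviated from their group means together, with correlations across genes of 0.259, 0.316 and 0.341 (0.257, 0.314 and 0.339 without the 10 genes), so the numbers were treated as paired. This was read from the data and not from the labels, and such correlations cannot show that the numbers are true pairs. The 10 genes, the other gene lists and the tests were chosen with earlier results of these data known. Named genes were the 10, up to 4 called genes with the smallest p per list and comparison, Nr4a3, Egr2, Egr3, Fosl1, Fosl2 and Dusp1, and the 10 most like profiles. Prdx2, Hspa1b, Egr4, Cyr61, Klf6 outside the replicate comparison, Xist, Ddx3y, some LT-HSC markers and markers at under 1 CPM were named to describe a result. Promoters come from RefSeq (GRCm38.p6) and exon lengths from GENCODE on the same build, and no coordinates were joined to the authors' mm9 values.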

Additional observations from a re-analysis of the deposited data

How the results depend on the processing

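Scaled to column totals, the median of all genes moved from 0.005 to -0.102 in Flt3ITD against Mx and from 0.01 to -0.111 in NPMc_Flt3ITD against Mx. The share of calls that were higher moved from 46.5% to 28.9%, from 43.9% to 33% and, for replicate number, from 34.5% to 24.8%. On that scale the log2 fold change of Jund in Flt3ITD against Mx was -0.05, and those of Egr1 and Ier2 in NPMc_Flt3ITD against Mx were -0.05 and -0.08, the opposite sign. Jun in Flt3ITD against Mx was -0.04 with edgeR and -0.02 with DESeq2. As many of the 10 genes were called with pseudocounts of 0.1 and 5 CPM, a filter of 5 CPM, column totals and, between genotypes, only the 4 libraries compared. With no filter on low values limma tested 17997 genes and called 0 of the 10 in Flt3ITD against Mx and 0 for replicate number, where 4 and 8 had an unadjusted p under 0.05, and the cause was not tested.

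In Flt3ITD against Mx 576 genes passed, or 375 with a pseudocount of 0.1 CPM, 0 with no filter (3285 at an unadjusted p under 0.05), 301 with edgeR, 1489 with DESeq2, 328 with only 4 libraries and 2341 with the replicate block, which called 5 of the 10. In NPMc_Flt3ITD against Mx 148 passed, or 27 with no filter, 550 with DESeq2 and 689 with the replicate block, which called 3 of the 10. In NPMc_Flt3ITD against Flt3ITD 149 passed, or 0 with no filter (2586 at an unadjusted p under 0.05), 92 with edgeR, 1017 with DESeq2 (3 of the 10) and 1513 with the replicate block (6 of the 10). For replicate number 597 passed, or 0 with no filter (2752 at an unadjusted p under 0.05) and 1002 with DESeq2. The cause of these differences was not tested.

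Leaving out 1 library, between 0 and 314 genes and between 0 and 3 of the 10 passed in Flt3ITD against Mx, between 20 and 168 genes and 0 of the 10 passed in NPMc_Flt3ITD against Mx and between 24 and 108 genes and 0 of the 10 passed in NPMc_Flt3ITD against Flt3ITD. Leaving out 1 genotype, between 241 and 498 genes and between 5 and 8 of the 10 passed for replicate number. Without Mx replicate 1 no gene passed in Flt3ITD against Mx by limma (1968 at an unadjusted p under 0.05). Signs of differences that had not passed turned when a library was left out. In Flt3ITD against Mx these were Fos (-1.05 to 0.48), Jun (-0.83 to 1.23), Junb (-1.58 to 0.78), Jund (-0.56 to 0.68) and Ier2 (-0.77 to 0.32). In NPMc_Flt3ITD against Mx these were Fos (-0.18 to 1.35), Fosb (-0.23 to 1.18), Jun (-0.59 to 1.47), Junb (-0.81 to 1.55), Egr1 (-0.43 to 0.59), Nr4a1 (-1.65 to 0.11) and Ier2 (-0.51 to 0.60). In NPMc_Flt3ITD against Flt3ITD these were Jun (-0.34 to 0.82), Junb (-0.05 to 1.59) and Ier2 (-0.28 to 0.83).

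Beyond the calls given in the report the block changed no other call of the 10 genes.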
